A study of Rattus norvegicus with 9 samples.

Results

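The genes described are the subunits of the proteasome with their activators, inhibitor and assembly chaperones, taken from bulk RNA-seq of rat femur. They were the protein-coding rows of the count table whose symbol starts with Psma, Psmb, Psmc, Psmd, Psme, Psmf or Psmg followed by a number, and the rule found 46 of 31125 rows, spread over 17 chromosomes, with no symbol repeated. Of these, 43 have a role at the proteasome: 8 alpha subunits, 4 non-catalytic beta subunits, 3 constitutive catalytic beta subunits, 2 immunoproteasome catalytic beta subunits, 6 ATPases and 12 non-ATPases of the regulatory particle, 3 activators, 1 inhibitor and 4 assembly chaperones. The other 3 (Psmc3ip, Psme1-ps1 and Psme3ip1) matched by name only. Psmb10, Psmb11, Psmd9, Psmd10 and Psme3 were not analysed here, so the third immunoproteasome catalytic subunit has no value below.

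The libraries came from whole femurs of male rats taken at day 7 in 3 groups of 3. Sham rats had sham surgery, GPI rats had an injury of the distal femoral growth plate, and GMTT rats had that injury and a hydrogel named in the series title by its parts: GelMA (a modified gelatin), TPGS (made from vitamin E) and tea polyphenols. Strain, age and any pooling of animals are not stated in the labels. The p-values therefore describe differences against the scatter of these libraries, some of which may be technical.

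The proteasome degrades proteins tagged with ubiquitin. Its barrel-shaped core, the 20S particle, is built of alpha and beta rings, and cutting is done by the beta subunits encoded by Psmb5, Psmb6 and Psmb7; a regulatory particle of ATPases and non-ATPases binds the tagged protein, unfolds it and feeds it in, which together makes the 26S proteasome. In blood-forming and immune cells, and in other cells exposed to interferon-gamma, Psmb8, Psmb9 and Psmb10 replace Psmb5, Psmb6 and Psmb7 in newly built cores, and the resulting immunoproteasome makes peptides suited to MHC class I. Bone holds both marrow, rich in such cells, and matrix-forming cells.

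Psmb8 (ENSRNOG00000000456) and Psmb9 (ENSRNOG00000000459) lie close together within the MHC class II region on chromosome 20. In the mRatBN7.2 build the Psmb8 gene spans 4652159 to 4655283 on the minus strand and Psmb9 spans 4666046 to 4672512 on the plus strand. Tap1, which encodes a chain of the peptide transporter for MHC class I, lies between them at 4656263 to 4666901 on the minus strand and overlaps Psmb9 by 855 bp. Whether reads in that overlap were assigned by strand is not given in the sources used here. The constitutive counterparts lie elsewhere: Psmb5 (ENSRNOG00000013386) on chromosome 15 at 28072781 to 28077440, Psmb6 (ENSRNOG00000019551) on chromosome 10 at 55239241 to 55241586, and Psmb7 (ENSRNOG00000011732) on chromosome 3 at 22354698 to 22417937.

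The promoters of the catalytic pairs are shown because these genes moved in opposite directions on the main scale of counts. The sequences are RefSeq's on the GRCr8 build, whose coordinates differ from those of the count table, and each runs 5′ to 3′ on the gene's strand from 250 bases before to 30 after the annotated start. Psmb8 is chr20:4657002-4657281 (minus strand), Psmb9 is chr20:4668750-4669029 (plus strand), Psmb5 is chr15:32047350-32047629 (minus strand) and Psmb6 is chr10:55737638-55737917 (plus strand). Capitals mark matches to any of 4 patterns sought on both strands: GAAA followed after any 2 bases by a second GAAA (the core of an interferon-stimulated response element), TTCNNNGAA (the GAS element bound by STAT factors), TGACNNNGC (the core of the antioxidant response element, also bound by Nfe2l1) and GGGA followed after any 4 bases by CC (the core of an NF-kB site).
Psmb8: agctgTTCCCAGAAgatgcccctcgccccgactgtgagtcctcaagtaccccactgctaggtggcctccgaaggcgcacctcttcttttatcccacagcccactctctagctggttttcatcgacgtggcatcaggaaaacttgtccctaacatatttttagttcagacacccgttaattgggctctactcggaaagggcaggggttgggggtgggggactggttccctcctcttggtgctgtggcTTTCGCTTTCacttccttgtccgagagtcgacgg
Psmb9: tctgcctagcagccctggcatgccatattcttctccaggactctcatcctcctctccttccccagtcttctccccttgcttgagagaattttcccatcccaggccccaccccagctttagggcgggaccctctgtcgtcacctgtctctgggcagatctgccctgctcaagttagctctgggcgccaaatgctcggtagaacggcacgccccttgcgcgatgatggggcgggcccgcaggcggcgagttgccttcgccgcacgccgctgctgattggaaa
Psmb5: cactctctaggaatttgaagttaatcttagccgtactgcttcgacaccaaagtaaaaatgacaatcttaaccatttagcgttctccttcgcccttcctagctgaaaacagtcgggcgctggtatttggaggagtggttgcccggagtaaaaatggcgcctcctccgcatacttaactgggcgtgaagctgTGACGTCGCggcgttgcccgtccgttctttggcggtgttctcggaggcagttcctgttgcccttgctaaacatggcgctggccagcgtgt
Psmb6: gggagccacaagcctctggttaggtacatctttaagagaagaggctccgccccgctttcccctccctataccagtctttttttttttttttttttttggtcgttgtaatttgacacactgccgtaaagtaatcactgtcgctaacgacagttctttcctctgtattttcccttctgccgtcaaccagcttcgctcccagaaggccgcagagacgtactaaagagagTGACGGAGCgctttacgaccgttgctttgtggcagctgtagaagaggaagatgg
Psmb8 held a match to the GAS pattern at bases 6 to 14 (TTCCCAGAA) and, on the other strand, a match to the interferon-stimulated pattern at bases 247 to 256 (TTTCGCTTTC), across the start. Psmb9 held none of the 4 patterns, and its 300-base window overlaps that of Tap1 by 44 bases. Psmb5 and Psmb6 each held a match to the antioxidant pattern, TGACGTCGC at bases 191 to 199 and TGACGGAGC at bases 227 to 235. RefSeq promoter windows of 300 bases were found for 41 of the 46 genes. The interferon-stimulated pattern was in 6 of the 41 (Psma4, Psmb3, Psmb8, Psmd7, Psme2 and Psmg4), or 14.6%, and in 3.92% of all 33469 windows. The antioxidant pattern was in 7 of the 41 (Psma3, Psmb2, Psmb5, Psmb6, Psmd1, Psmd3 and Psme4), or 17.1%, against 12.1% of all windows. The GAS pattern was in 4 (9.76% against 8.87%) and the NF-kB pattern in 9 (22.0% against 19.3%). A match describes the letters only.

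Totals ran from 15927429 to 19715997 counts per library, and one feature of the GPI libraries sets how every level is read. Counts were scaled between libraries by TMM factors, which were 1.28 to 1.29 in Sham, 0.600 to 0.604 in GPI and 1.28 to 1.30 in GMTT. Mitochondrially encoded genes took 25.8 to 27.3% of the counts in GPI, 3.80 to 4.19% in Sham and 5.84 to 6.55% in GMTT. The 12 skeletal muscle markers with a row took 9.74 to 10.3%, 0.223 to 0.240% and 2.18 to 2.34%. On library sizes alone, with no such factor, the median log2 fold change of all genes in GPI against Sham moved by -1.09, from -0.19 to -1.28. Values are given on the TMM scale unless stated, directions that turn on library sizes alone are given for each class and for the genes named with values, and ratios inside a library, which no scaling can move, are given beside them. Levels are the deposited FPKM, fragments per unit of gene length and of library size, which already carry a like scaling. A gene is called when its adjusted p (edgeR's quasi-likelihood test, Benjamini-Hochberg over 15936 genes) is below 0.05.

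The immunoproteasome transcripts were low in GPI and above the Sham level in GMTT. Psmb8, the chymotrypsin-like subunit of the immunoproteasome, had an FPKM of 39.1, 39.1 and 44.8 in the 3 Sham libraries, 3.33, 4.18 and 4.16 in GPI, and 55.6, 51.6 and 50.7 in GMTT. The 3 groups did not overlap, with GPI lowest and GMTT highest. The share of all genes whose libraries part in this way was not counted, here or for the genes below. Calls were common, with 40.1% of all genes tested higher and 48.1% lower in GPI than in Sham. Its log2 fold change was -3.43 (SE 0.10) in GPI against Sham, a 10.8-fold lower level with an adjusted p of 1.83e-25. It was 3.76 (SE 0.09, adjusted p 9.42e-27) in GMTT against GPI and 0.33 (SE 0.06, adjusted p 2.06e-05) in GMTT against Sham. The 3 GPI libraries together held 188 counts of Psmb8, against 3887 in Sham and 5162 in GMTT.

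Psmb9, the immunoproteasome subunit that takes the place of Psmb6, had an FPKM of 13.7, 13.9 and 17.7 in Sham, 2.84, 3.32 and 3.01 in GPI, and 24.1, 21.6 and 19.5 in GMTT. The order of the groups was that of Psmb8, again with no overlap. The log2 fold change was -2.33 (SE 0.13, adjusted p 5.84e-15) in GPI against Sham, 2.83 (SE 0.12, adjusted p 4.41e-17) in GMTT against GPI and 0.49 (SE 0.08, adjusted p 2.15e-05) in GMTT against Sham. Both genes kept these directions and calls under each scaling tried, at -4.52 for Psmb8 and -3.43 for Psmb9 in GPI against Sham on library sizes alone.

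The constitutive catalytic subunits went the other way on the TMM scale. Psmb5, the chymotrypsin-like subunit, had an FPKM of 62.8, 67.0 and 76.5 in Sham, 127, 149 and 127 in GPI, and 69.6, 69.3 and 60.1 in GMTT. Psmb6, the caspase-like subunit, had 53.7, 59.6 and 62.1 in Sham, 118, 131 and 114 in GPI, and 61.0, 61.8 and 55.7 in GMTT. Psmb7, the trypsin-like subunit, had 90.8, 96.5 and 96.0 in Sham, 203, 217 and 205 in GPI, and 93.8, 90.0 and 98.6 in GMTT. In each of the 3 genes every GPI library lay above all Sham and GMTT libraries, while Sham and GMTT overlapped. The log2 fold changes in GPI against Sham were 0.94 (SE 0.08) for Psmb5, 1.02 (SE 0.06) for Psmb6 and 1.11 (SE 0.05) for Psmb7, with adjusted p of 2.35e-10, 5.89e-16 and 1.08e-19. None of the 3 was called in that comparison on library sizes alone, at -0.16, -0.07 and 0.02. In GMTT against Sham the 3 were not called on either scale, with log2 fold changes of -0.08, -0.01 and -0.04 and adjusted p of 0.370, 0.946 and 0.569 on the TMM scale.

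**Figure D1:**
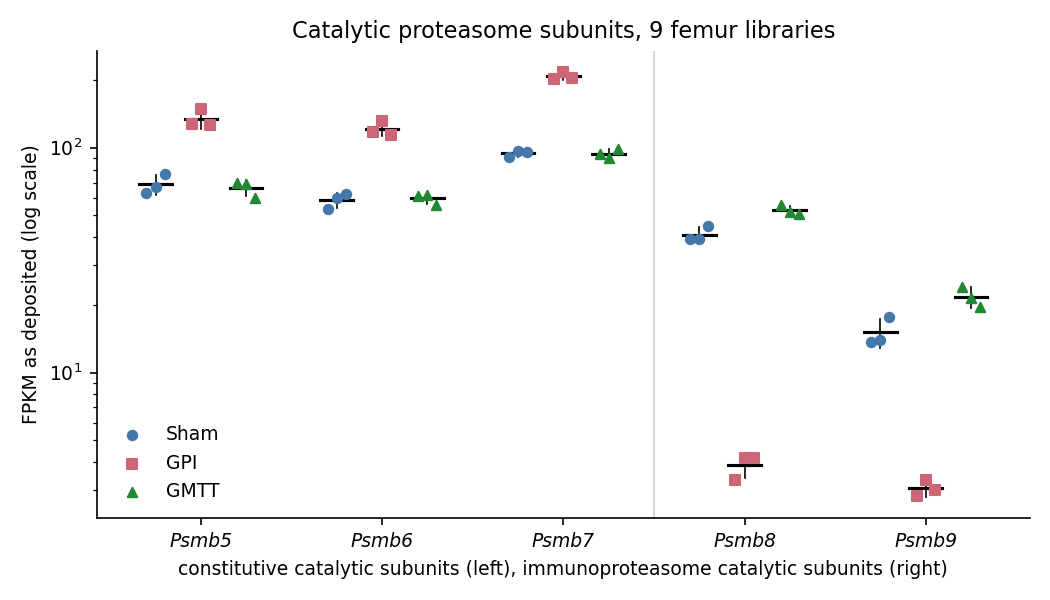
FPKM as deposited, on a log axis, of the constitutive (Psmb5, Psmb6, Psmb7) and immunoproteasome (Psmb8, Psmb9) catalytic subunits; each point is 1 library, and black lines give the mean and SD of 3. GPI libraries sit highest for the constitutive genes (114 to 217) and lowest for Psmb8 and Psmb9 (2.84 to 4.18); on library sizes alone the constitutive genes did not differ between GPI and Sham by the test, and Psmb8 and Psmb9 stayed lower.

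Within a library, the immunoproteasome transcripts lost most of their share in GPI. Psmb8 made up 38.4, 36.9 and 36.9% of the summed FPKM of Psmb8 and Psmb5 in Sham, 2.55, 2.72 and 3.18% in GPI, and 44.4, 42.7 and 45.8% in GMTT. Psmb9 made up 20.4, 18.9 and 22.2% of the summed FPKM of Psmb9 and Psmb6 in Sham, 2.35, 2.47 and 2.56% in GPI, and 28.3, 25.9 and 25.9% in GMTT. The groups did not overlap in either pair. The size of a share rests on the gene lengths used for FPKM, such as 1958 bases for Psmb9 and 811 for Psmb6. Differences of the log2 ratios between groups do not. As group means, the Psmb8 share was 37.4 ± 0.866% in Sham, 2.82 ± 0.324% in GPI and 44.3 ± 1.55% in GMTT (SD, n = 3), and the Psmb9 share was 20.5 ± 1.63%, 2.46 ± 0.104% and 26.7 ± 1.39% (SD, n = 3).

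The log2 ratio of Psmb8 to Psmb5 fell by 4.37 (SE 0.10), or 20.7-fold, from Sham to GPI, lay 4.78 (SE 0.11) higher in GMTT than in GPI, and lay 0.41 (SE 0.06), or 1.33-fold, higher in GMTT than in Sham. The log2 ratio of Psmb9 to Psmb6 fell by 3.35 (SE 0.09), or 10.2-fold, from Sham to GPI, lay 3.85 (SE 0.07) higher in GMTT than in GPI, and lay 0.50 (SE 0.10), or 1.41-fold, higher in GMTT than in Sham. The exact two-sided permutation p was 0.1 for each of the 6 differences, the smallest that 3 against 3 libraries allow, and 0.1 after adjustment over the 6. Ratios among the constitutive genes moved far less: Psmb5 to Psmb6 was 0.23 ± 0.07 in Sham, 0.15 ± 0.04 in GPI and 0.16 ± 0.04 in GMTT (log2, SD, n = 3). Psmb5 to Psmb7 was -0.46 ± 0.12, -0.64 ± 0.08 and -0.51 ± 0.18 in these groups. It differed by -0.18 (SE 0.08) between GPI and Sham with an exact permutation p of 0.1, so that p is not particular to the 6 differences.

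**Figure D2:**
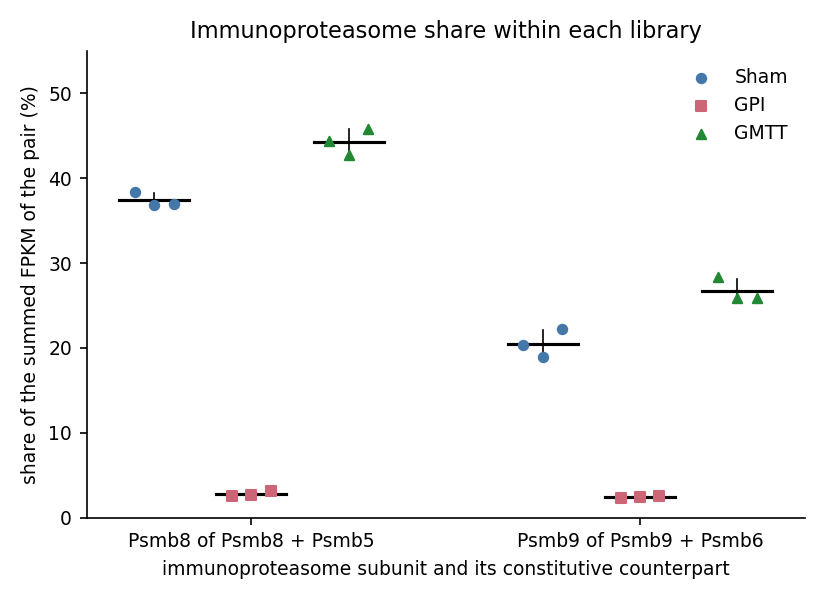
Share of Psmb8 in the summed FPKM of Psmb8 and Psmb5, and of Psmb9 in that of Psmb9 and Psmb6, in percent; each point is 1 library, and black lines give the mean and SD of 3. GPI libraries sit between 2.35 and 3.18%, Sham between 18.9 and 38.4% and GMTT between 25.9 and 45.8%; a share within a library does not depend on scaling.

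Psmb8 and Psmb9 did not fall equally. The log2 ratio of Psmb8 to Psmb9 was 1.45 ± 0.09 in Sham, 0.34 ± 0.12 in GPI and 1.28 ± 0.09 in GMTT (SD, n = 3). It was lower in all 3 GPI libraries than in any other library, by 1.10 (SE 0.09) against Sham (exact permutation p = 0.1, the smallest possible). The log2 ratio of Psmb9 to its overlapping neighbour Tap1 was -0.26 ± 0.19, -0.12 ± 0.28 and 0.11 ± 0.08 in Sham, GPI and GMTT (SD, n = 3). It differed by 0.14 (SE 0.19, exact permutation p = 0.6) between GPI and Sham, where the libraries overlapped, and by 0.37 (SE 0.12, exact permutation p = 0.1) between GMTT and Sham, where they did not. Between GMTT and Sham the Psmb8 to Psmb9 ratio differed by -0.17 (SE 0.07, exact permutation p = 0.2). The part of the stretch shared by Psmb9 and Tap1 in these ratios was not tested.

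Markers of leukocytes, like Psmb8 and Psmb9, were far lower in GPI than in the other groups. Of all genes tested, 48.1% were lower and 40.1% higher in GPI than in Sham. The 12 pan-leukocyte markers summed to 0.324 to 0.336% of the counts in Sham, 0.00685 to 0.00705% in GPI and 0.370 to 0.379% in GMTT, and 12 of 12 fell in GPI against Sham (median log2 fold change -5.32). The 10 monocyte and macrophage markers summed to 0.597 to 0.636%, 0.00728 to 0.00802% and 0.643 to 0.668%, with 10 of 10 lower in GPI (median -2.93). The 10 neutrophil lineage markers summed to 0.927 to 0.995%, 0.000514 to 0.000624% and 1.10 to 1.16%, with 9 of 9 tested lower in GPI. The 8 B lymphocyte markers summed to 0.0889 to 0.0935%, 0.00124 to 0.00157% and 0.0574 to 0.0590%. All 8 fell in GPI against Sham, with Vpreb1 at 0 in all GPI libraries. In GMTT against Sham, where 29.5% of all genes tested were higher and 28.3% lower, the lists differed. Of the pan-leukocyte markers 7 of 12 were higher and 2 lower (median 0.14). Of the monocyte and macrophage markers 6 of 10 were higher and 3 lower (median 0.34). Of the neutrophil lineage markers 5 of 9 tested were higher and 0 lower (median 0.31), and 8 of 8 B lymphocyte markers were lower (median -0.62). Ptprc, which encodes the pan-leukocyte antigen CD45, had a mean FPKM of 18.6 ± 0.464 in Sham, 0.477 ± 0.0550 in GPI and 22.4 ± 0.971 in GMTT (SD, n = 3). In bulk tissue, fewer cells of a type and less RNA per cell cannot be told apart, and the part of these markers in the levels of Psmb8 and Psmb9 was not tested.

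Over all genes of the set, 45 were tested and 1 was not: Psma8, the alpha subunit of the testis, had no count in any library. In GPI against Sham, 24 of the 45 were higher, 13 were lower and 8 were not called, where 40.1% of all genes tested were higher and 48.1% lower. The median log2 fold change was 0.20, beside -0.19 over all genes tested. On library sizes alone 1 was higher (Psmd12), 41 were lower and 3 were not called (Psmb5, Psmb6 and Psmb7), where 22.1% of all genes were higher and 70.3% lower. The sign differed between these scales for 25 of the 45, and 20 were called in opposite directions. The direction of most members in this comparison therefore rests on the scaling, and their order relative to each other does not.

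The members of the 26S proteasome did not move as a block in GPI. Over 32 subunit genes without Psmb8 and Psmb9, the log2 fold changes against Sham ranged from -1.85 to 1.21 with an SD of 0.58, and the SD was 0.49 in GMTT against GPI and 0.12 in GMTT against Sham. An internal yardstick was the geometric mean FPKM of 11 core genes (Psma1 to Psma7 and Psmb1 to Psmb4), which was 51.9 ± 1.14 in Sham, 56.3 ± 0.996 in GPI and 48.8 ± 1.33 in GMTT (SD, n = 3). Levels relative to it are log2 ratios inside a library.

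**Figure D3:**
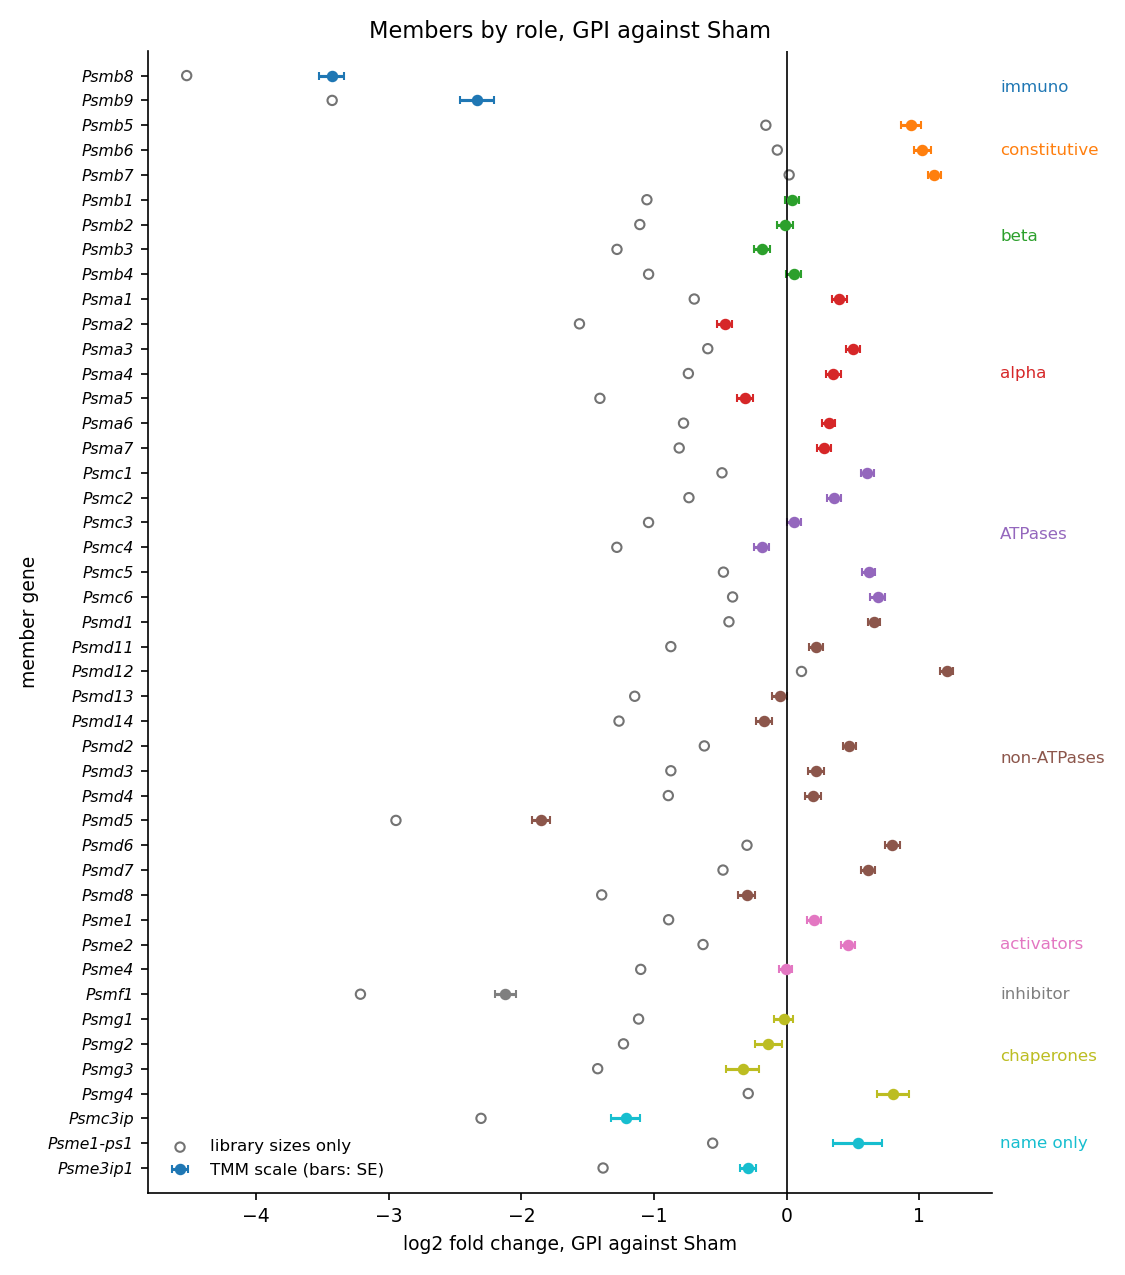
Log2 fold change of the 45 tested genes in GPI against Sham, ordered by role; filled points with SE bars are on the TMM scale and open circles on library sizes alone. Psmb8 (-3.43), Psmb9 (-2.33), Psmf1 (-2.12) and Psmd5 (-1.85) lie at the left on both scales, while Psmd12 (1.21) and the constitutive catalytic genes (0.94 to 1.11) lie at the right; on library sizes alone all but Psmd12 (0.11) and Psmb7 (0.02) lie below 0.

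The alpha subunits, which form the gate of the core, differed among themselves. Of 7 tested, 5 rose and 2 fell in GPI against Sham, and all 7 were lower on library sizes alone. The median of the 7 on library sizes alone was -0.78, beside -1.28 over all genes tested. For this class and those below, the shares over all genes were 40.1% higher and 48.1% lower. On library sizes alone they were 22.1% and 70.3%. Psma3 was highest at 0.50 (SE 0.05), with an FPKM of 41.4, 43.4 and 40.4 in Sham, 60.5, 60.1 and 60.3 in GPI and 38.2, 37.1 and 40.1 in GMTT. Psma2 was lowest at -0.47 (SE 0.06), with 25.5, 26.5 and 26.7 in Sham, 20.2, 18.3 and 19.5 in GPI and 24.1, 21.9 and 24.7 in GMTT. Psma2 thus had its lowest 3 libraries where Psma3 had its highest. Psma6, the most abundant alpha transcript at an FPKM of 87.2 ± 1.75 in Sham, had a log2 fold change of 0.32 (SE 0.05).

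The non-catalytic beta subunits stood nearly still on the TMM scale, and on library sizes alone GPI was lower than Sham in all 4. Psmb1, Psmb2 and Psmb4 were not called in GPI against Sham, at 0.04, -0.01 and 0.05, and Psmb3 fell by 0.19 (SE 0.06, adjusted p 0.00752 by edgeR), a call lost with median-of-ratios size factors (-0.13, adjusted p 0.0645), without GPI replicate 3 (-0.14, adjusted p 0.0675) and with limma on log2(FPKM + 1) over unfiltered genes (-0.15, adjusted p 0.0721). Psmb4 had the highest FPKM of all members in Sham, at 99.6 ± 5.19, and Psmb2 was at 59.9 ± 1.66 in Sham, 60.6 ± 2.32 in GPI and 59.3 ± 2.68 in GMTT (SD, n = 3). Relative to the core yardstick, Psmb5 lay 0.85, Psmb6 0.94 and Psmb7 1.03 higher in GPI than in Sham. Every GPI library lay above every Sham library for these 3 (exact permutation p = 0.1, the smallest possible), so the catalytic and non-catalytic beta transcripts parted inside the libraries. That p is not particular to them: Psmb3 (-0.28) and Psma1 to Psma7, all part of the yardstick, reached it too.

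Of the 6 ATPases of the base, which unfold the substrate, 4 rose, 1 fell and 1 was not called in GPI against Sham, and all 6 were lower on library sizes alone. Psmc6 was highest at 0.69 (SE 0.06), with an FPKM of 17.6, 18.6 and 16.7 in Sham, 29.0, 28.8 and 29.2 in GPI and 15.1, 14.9 and 17.5 in GMTT. Psmc4 was lowest at -0.19 (SE 0.06), a call lost without GPI replicate 1 (-0.13, adjusted p 0.0518 by edgeR). Psmc3, the most abundant of the 6 by mean FPKM over all 9 libraries (80.4, against 79.8 for Psmc2, which was above it in GPI), had a log2 fold change of 0.05 (SE 0.05) and was not called.

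The 12 non-ATPases and base assembly genes held both extremes of the regulatory particle: 8 rose, 3 fell and 1 was not called in GPI against Sham, and on library sizes alone 1 was higher and 11 were lower. Psmd12, a subunit of the lid, had an FPKM of 28.7, 30.3 and 28.2 in Sham, 69.6, 67.3 and 68.6 in GPI, and 27.9, 28.3 and 28.9 in GMTT. The GPI libraries lay far above the others, which overlapped. Its log2 fold change was 1.21 (SE 0.05, adjusted p 9.52e-21) in GPI against Sham and -1.27 (SE 0.05) in GMTT against GPI, and it was the only member called higher in GPI than in Sham on library sizes alone, at 0.11. Psmd2, a base scaffold and the most abundant of the 12, had a log2 fold change of 0.47 (SE 0.05; -0.62 on library sizes alone) and an FPKM of 69.2 ± 2.87 in Sham, 98.0 ± 4.47 in GPI and 68.3 ± 2.89 in GMTT (SD, n = 3).

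Psmd5, a chaperone for assembly of the base that leaves the finished particle, went the other way. Its FPKM was 35.3, 34.7 and 35.2 in Sham, 10.1, 9.68 and 10.0 in GPI, and 21.9, 22.2 and 24.3 in GMTT. The 3 groups did not overlap, and GMTT lay between the others. The log2 fold change was -1.85 (SE 0.07, adjusted p 2.06e-22) in GPI against Sham, 1.20 (SE 0.07, adjusted p 8.13e-17) in GMTT against GPI and -0.65 (SE 0.05, adjusted p 8.51e-12) in GMTT against Sham.

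Psmf1, which encodes the proteasome inhibitor PI31, showed the same order of groups. Its FPKM was 54.8, 56.7 and 60.4 in Sham, 11.9, 15.7 and 12.7 in GPI, and 41.5, 36.0 and 36.0 in GMTT, again without overlap. The log2 fold change was -2.12 (SE 0.08, adjusted p 8.19e-21) in GPI against Sham, a 4.35-fold lower level, 1.49 (SE 0.08, adjusted p 1.88e-16) in GMTT against GPI and -0.63 (SE 0.07, adjusted p 1.58e-09) in GMTT against Sham. Both genes kept their directions and calls on library sizes alone, at -2.95 for Psmd5 and -3.21 for Psmf1 in GPI against Sham. Relative to the core yardstick, Psmd5 fell by 1.94 and Psmf1 by 2.22, while Psmd12 lay 1.12 higher (exact permutation p = 0.1 each, the smallest possible). Psma1 to Psma7, which are part of the yardstick, reached the same p, so it is not particular to these genes. The 10 erythroid markers, of which 9 were lower and 1 higher in GPI against Sham, had a median log2 fold change of -9.38. That is a steeper fall than that of their sum. They summed to 1.33 to 1.34% of the counts in Sham, 0.107 to 0.112% in GPI and 0.756 to 0.764% in GMTT, the same order of groups. The 8 B lymphocyte markers had that order too, at 0.0889 to 0.0935%, 0.00124 to 0.00157% and 0.0574 to 0.0590% in Sham, GPI and GMTT. The part of either list in these levels was not tested.

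**Figure D4:**
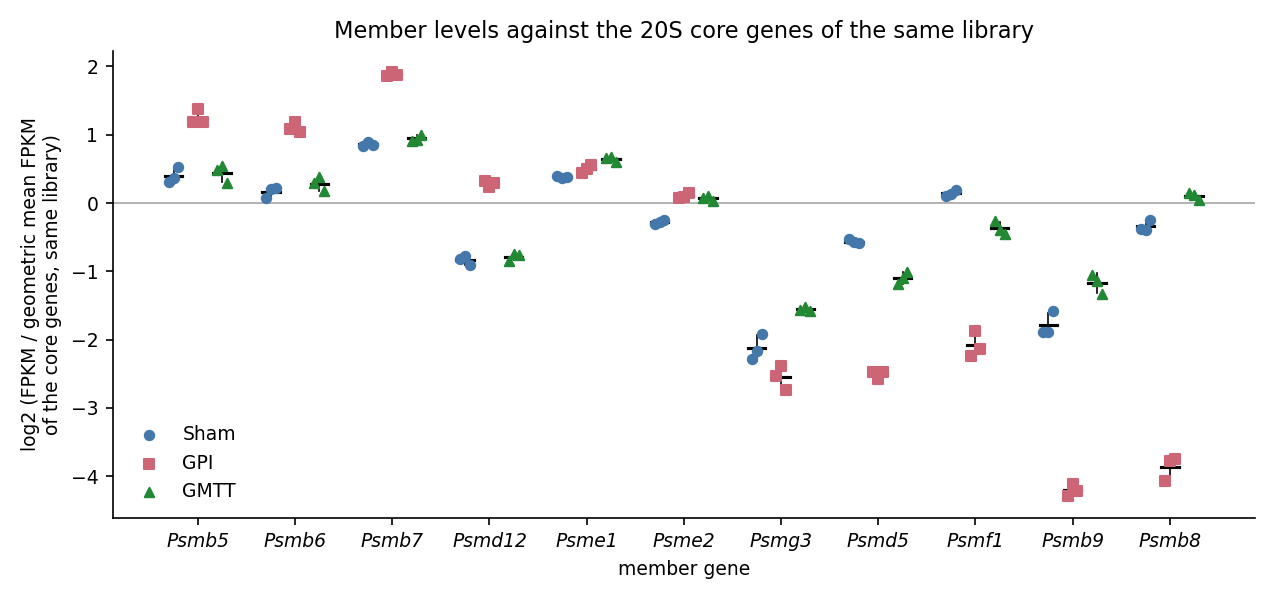
Log2 ratio of FPKM to the geometric mean FPKM of 11 core genes of the same library, for 11 members; points are libraries, and black lines give the mean and SD of 3 per group. Psmb8 and Psmb9 have GPI means of -3.86 and -4.20, Psmd5 and Psmf1 fall less and stay below Sham in GMTT, and Psmb5, Psmb6, Psmb7 and Psmd12 lie highest in GPI; GMTT lies above Sham for Psmb7 by 0.08, without overlap. These ratios do not depend on scaling.

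The activators did not follow the immunoproteasome subunits. Psme1 and Psme2 encode the subunits of PA28, an activator ring that interferon-gamma also raises. Psme1 had an FPKM of 66.7, 66.6 and 69.4 in Sham, 75.9, 80.9 and 81.5 in GPI, and 79.2, 76.0 and 75.0 in GMTT. Psme2 had 41.3, 42.9 and 44.8 in Sham, 58.8, 61.1 and 61.7 in GPI, and 52.6, 51.1 and 50.3 in GMTT. In both genes all GPI and all GMTT libraries lay above all Sham libraries. On the TMM scale the log2 fold change in GPI against Sham was 0.20 (SE 0.05) for Psme1 and 0.46 (SE 0.05) for Psme2; on library sizes alone it was -0.89 and -0.63. The log2 ratio of Psmb8 to Psme1 was -0.72 ± 0.08 in Sham, -4.36 ± 0.13 in GPI and -0.54 ± 0.03 in GMTT (SD, n = 3), so the parting of Psmb8 from Psme1 in GPI did not depend on scaling. Psme4, which encodes the nuclear activator PA200, was not called in GPI against Sham (-0.01) and fell by 0.32 (SE 0.05) in GMTT against Sham.

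Among the assembly chaperones of the core, Psmg1 and Psmg2 were not called in GPI against Sham (-0.02 and -0.14), and all 4 chaperones were lower on library sizes alone. Psmg4 rose by 0.80 (SE 0.12), with an FPKM of 11.5, 11.0 and 14.6 in Sham, 20.9, 20.6 and 24.9 in GPI and 13.5, 12.5 and 12.3 in GMTT, and was at -0.29 on library sizes alone. Psmg3 had 10.4, 11.5 and 14.0 in Sham, 9.65, 11.0 and 8.38 in GPI, and 17.0, 16.6 and 16.5 in GMTT. Its log2 fold change was -0.33 (SE 0.12, adjusted p 0.0131) in GPI against Sham, where the libraries overlapped and the call was lost without Sham replicate 3 (-0.21, adjusted p 0.110) or without GPI replicate 3 (-0.24, adjusted p 0.0940), by edgeR, and with DESeq2 (-0.30, adjusted p 0.0566). It was 0.44 (SE 0.10, adjusted p 0.000301) in GMTT against Sham, where they did not.

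The 3 genes matched by name alone were all lower in GPI than in Sham on library sizes alone. Psmc3ip, a meiotic recombination factor, fell by 1.21 (SE 0.11) in GPI against Sham. Psme3ip1, a partner of the Psme3 protein, fell by 0.29 (SE 0.06). Psme1-ps1, a copy of Psme1 on chromosome 17, rose by 0.53 (SE 0.18) at an FPKM of 2.93 to 6.67 over the Sham and GPI libraries, a call lost without GPI replicate 2 (0.29, adjusted p 0.181 by edgeR) and turned on library sizes alone (-0.56). It is uncertain because reads can be shared with Psme1, and how such reads were counted is not stated.

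In GMTT against GPI, which shares its GPI libraries with the comparison above, 8 of the 45 were higher, 29 were lower and 8 were not called, where 45.7% of all genes tested were higher and 40.2% lower. On library sizes alone 40 were higher, 1 was lower and 4 were not called, where 72.2% of all genes were higher and 18.9% lower, and 24 were called in opposite directions on these scales. Psmb8 (3.76), Psmb9 (2.83), Psmf1 (1.49) and Psmd5 (1.20) had the largest increases on the TMM scale. Psmd12 (-1.27), Psmb7 (-1.15), Psmb6 (-1.03) and Psmb5 (-1.02) had the largest decreases apart from Psme1-ps1 (-1.15), and on library sizes alone these 5 were at -0.17, -0.04, 0.08, 0.08 and -0.05, with Psmd12 called. Relative to the core yardstick, Psmb8 lay 3.97 and Psmb9 3.03 higher in GMTT than in GPI.

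In GMTT against Sham the scaling hardly mattered, since the median of all genes moved by 0.01 between scales and no member was called in opposite directions. Of the 45, 5 were higher, 24 were lower and 16 were not called, where 29.5% of all genes tested were higher and 28.3% lower. The count of lower genes depended on the test: it was 17 with DESeq2, 16 with limma on log2(FPKM + 1), and 13 with limma on unfiltered genes. The median log2 fold change was -0.15, beside -0.00 over all genes. The 5 higher genes were Psmb9 (0.49), Psmg3 (0.44), Psmb8 (0.33), Psme2 (0.22, SE 0.05) and Psme1 (0.15, SE 0.05), so both tested immunoproteasome subunits and both PA28 subunits were among them. The Psme1 call was lost without GMTT replicate 1 (0.13, adjusted p 0.0528 by edgeR). Relative to the core yardstick these genes lay 0.61 (Psmb9), 0.58 (Psmg3), 0.45 (Psmb8), 0.34 (Psme2) and 0.27 (Psme1) higher, with no overlap of the libraries in any of them. The 5 were chosen by their calls in these same libraries, so this separation is a description only. The yardstick itself was lower in GMTT (48.8 against 51.9 in Sham). Other members also parted from it without overlap, such as Psma1 (0.15) and Psmc4 (-0.22).

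No alpha, beta, ATPase or non-ATPase gene other than Psmb8 and Psmb9 was called higher in GMTT than in Sham. Of the 12 non-ATPases and base assembly genes 8 were lower, of the 6 ATPases 5, of the 7 alpha genes 4 (2 on library sizes alone) and of the 4 non-catalytic beta genes 2. Over all genes tested, 28.3% were lower and 29.5% higher. Most of the class members had small differences. Among the decreases in these classes, Psmc4, the largest among the ATPases, fell by 0.34 (SE 0.05), Psmb1 by 0.24 (SE 0.05) and Psma2 by 0.18 (SE 0.05), a call lost without GMTT replicate 2 (-0.13, adjusted p 0.0641 by edgeR). The Psme1-ps1 call was lost without Sham replicate 2 (-0.44, adjusted p 0.0680 by edgeR). Psmd5, Psmf1 and Psme1-ps1 fell by 0.65, 0.63 and 0.62, and these 3 were the only members past 0.5 in either direction. Against Sham, the leukocyte list had 7 of 12 genes higher and 2 lower in GMTT, and the monocyte and macrophage list 6 of 10 higher and 3 lower. The neutrophil lineage list had 5 of 9 tested genes higher and 0 lower. The B lymphocyte list had 8 of 8 lower, the erythroid list 10 of 10 lower and the muscle list 12 of 12 higher (median 3.25). The part of these cell types in the member levels was not tested.

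**Figure D5:**
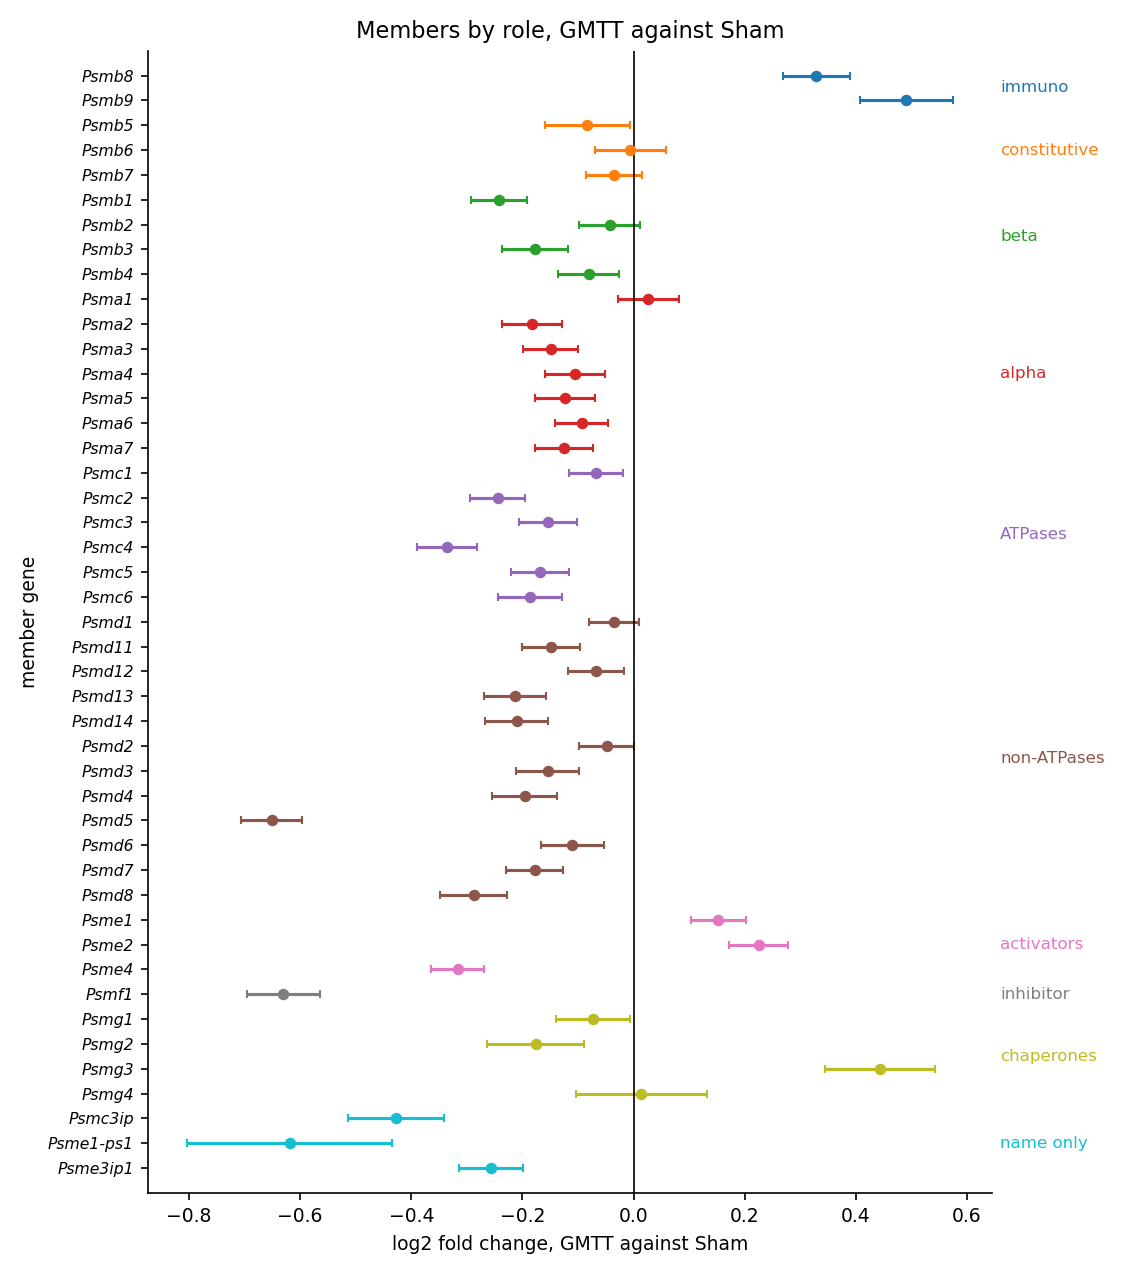
Log2 fold change with SE of the 45 tested genes in GMTT against Sham, ordered by role, on the TMM scale. Psmb8, Psmb9, Psme1, Psme2 and Psmg3 lie above 0 by the test, Psmd5 (-0.65), Psmf1 (-0.63) and Psme1-ps1 (-0.62) lie lowest, and the other 26S genes lie between -0.34 and 0.03.

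The order of the levels, compared per gene length, shifted with these changes. Psmb4 (99.6 ± 5.19) and Psmb7 (94.4 ± 3.16) led in Sham, within their spread of each other, and again in GMTT (96.3 ± 4.30 and 94.1 ± 4.29), whereas Psmb7 (208 ± 7.70), Psmb5 (134 ± 13.0) and Psmb6 (121 ± 8.97) led in GPI, Psmb7 beyond the spread of the next (FPKM, SD, n = 3). Psmb8 ranked 26 of the 46 in Sham, between Psmc5 (41.2 ± 1.06) and Psmd6 (39.8 ± 2.10) and within their spread, 44 in GPI, and 15 in GMTT. Psmb9 ranked 40, 45 and 36. In GPI only Psma8, at 0, ranked below Psmb9.

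Genes that work with the proteasome were read from lists by role. The counts stand beside the shares over all genes in GPI against Sham, 40.1% higher and 48.1% lower on the TMM scale and 22.1% and 70.3% on library sizes alone. On the TMM scale 45.7% of all genes were higher and 40.2% lower in GMTT against GPI. In GMTT against Sham these shares were 29.5% and 28.3%. Of 7 partners without a Psm symbol, 5 rose and 2 fell in GPI against Sham, and 1 was higher and 6 were lower on library sizes alone. Ecpas, an adaptor that tethers the proteasome, rose by 2.21 (SE 0.05) and stayed higher on library sizes alone (1.11), Pomp, the maturation factor of the core, rose by 0.53 (SE 0.06; -0.56 on library sizes alone), and Uchl5, a deubiquitinase of the regulatory particle, fell by 0.73 (SE 0.08). In GMTT against Sham, 1 of the 7 was higher and 3 were lower.

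Of 4 tested regulators of proteasome genes, 3 rose and 1 fell in GPI against Sham, and 1 was higher and 3 were lower on library sizes alone. Nfe2l1, the transcription factor that raises proteasome genes when degradation lags, had an FPKM of 14.3, 14.5 and 15.1 in Sham, 99.1, 99.8 and 98.9 in GPI, and 21.0, 22.0 and 20.6 in GMTT. The groups did not overlap, and GMTT lay near Sham. Its log2 fold change was 2.73 (SE 0.05) in GPI against Sham (1.64 on library sizes alone) and 0.50 (SE 0.05) in GMTT against Sham. The enzymes that process its protein parted: Ngly1 rose by 0.59 (SE 0.06; -0.50 on library sizes alone) and Ddi2 fell by 0.47 (SE 0.07).

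Of 11 tested genes for ubiquitin, its E1 enzymes and shuttle factors, 3 rose and 6 fell in GPI against Sham, and all 11 were lower on library sizes alone. Ubb, which encodes a chain of ubiquitin repeats, fell by 1.24 (SE 0.05), from an FPKM of 271 ± 19.0 to 117 ± 8.21 (SD, n = 3). In GMTT against Sham, none of the 11 was higher and 5 were lower.

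Of 8 tested genes for antigen processing to MHC class I, none rose and 7 fell in GPI against Sham (8 on library sizes alone), and 7 were higher in GMTT than in GPI. Tap1 fell by 2.43 (SE 0.09) and Tap2, the other chain of the transporter, by 2.04 (SE 0.08). Nlrc5, the transactivator of MHC class I genes, fell by 2.33 (SE 0.10) and was 0.57 (SE 0.06) above Sham in GMTT. Tap1 and Tap2 were not called in GMTT against Sham, at 0.13 and -0.02, whereas their neighbours Psmb8 and Psmb9 were called higher. The Tap1 value lay at the threshold: it was called with median-of-ratios size factors (0.16, adjusted p 0.0344).

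Of 8 tested interferon regulators, 2 rose and 6 fell in GPI against Sham, and all 8 were lower on library sizes alone; 4 were higher and 1 lower in GMTT against Sham. Irf8, a factor of myeloid and B cells, fell by 4.28 (SE 0.09), from an FPKM of 14.9 ± 0.479 to 0.787 ± 0.176, and was at 20.4 ± 0.393 in GMTT (SD, n = 3). Jak2 fell by 1.42 (SE 0.07) and Stat2 by 0.98 (SE 0.07). Ifng did not pass the low-count filter.

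Of 8 ubiquitin ligases of muscle, 7 rose and 1 fell in GPI against Sham, and 7 rose and 1 fell in GMTT against Sham, with the same counts on library sizes alone. Trim63, the ligase MuRF1 of muscle atrophy, had a mean FPKM of 1.02 ± 0.126 in Sham, 206 ± 4.36 in GPI and 9.94 ± 0.511 in GMTT (SD, n = 3), and rose by 7.62 on the log2 scale (SE 0.08) in GPI against Sham. Trim54 and Asb2 rose by 6.33 (SE 0.08) and 6.25 (SE 0.08). Ckm, the creatine kinase of muscle, had a mean FPKM of 82.3 ± 4.62, 9618 ± 304 and 785 ± 37.0 in the 3 groups (SD, n = 3), so muscle transcripts were highest in the libraries in which Psmb5, Psmb6, Psmb7 and Psmd12 were highest on the TMM scale. Muscle was not alone in this. Of 8 adipocyte markers, 8 were higher in GPI than in Sham (7 higher and 1 lower on library sizes alone). In GMTT against GPI 7 of them were lower and 0 higher. Of 8 endothelial markers, 7 were higher and 1 lower in GPI against Sham (6 and 2 on library sizes alone). In GMTT against GPI 7 of those were lower and 1 higher. Of 7 tested chondrocyte markers, 5 were higher and 1 lower in GPI against Sham (1 and 4 on library sizes alone). In GMTT against GPI 5 chondrocyte markers were lower and 1 higher. The 10 osteoblast and osteocyte markers went the other way, with 1 higher and 9 lower in GPI against Sham and 10 higher in GMTT against GPI. The part of these cell types in the member levels was not tested.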

How the data were processed

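Bulk RNA-seq of rat femur was analysed in 9 libraries, 3 per group. TRIzol RNA was enriched for poly(A) transcripts and made into stranded dUTP libraries for paired-end sequencing, per the labels' protocols. The submitters' processing notes name the build mRatBN7.2. No aligner, counter or strand setting is given in the sources used here. The authors deposited whole-number counts per gene and, separately, FPKM. Each deposited FPKM value was the gene's count divided by its length and by a constant of its library (largest relative deviation 6.42e-14). That constant was 1.31 to 1.32 of the library total in Sham, 0.598 to 0.608 in GPI and 1.29 to 1.30 in GMTT.

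Counts were tested with edgeR 4.0.16 in R 4.3.3 (TMM, quasi-likelihood F test with robust dispersions, two-sided) in 1 model of 3 groups over 9 libraries, on the 15936 of 31125 genes that passed edgeR's default filter on low counts (minimum count 10). Benjamini-Hochberg adjusted p below 0.05 was a call, and SE is the size of the log2 fold change over the root of F. Log2 ratios of FPKM within a library took no pseudocount and were compared by an exact two-sided permutation test (scipy 1.17.1). Other pairs (chosen with results known), the core yardstick and motif matches are descriptions. Promoters came from RefSeq (GRCr8). The edgeR step was tested on counts simulated at Sham levels with few genes changed, as many up as down. That setting cannot test the scaling between GPI and the other groups. Replicates of a group differed beyond sampling noise (chi-square per degree of freedom 1.99 to 5.15), so each counted as 1.

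The members and lists were chosen with earlier results of these data known. Genes named with values were the catalytic subunits, classes of up to 4 members in full, the highest, lowest and most abundant member of larger classes, members past 0.5 in GMTT against Sham, members that did not pass the filter, and the 3 genes with the smallest p in each pathway list. Some genes that this rule names are not reported here. Psmd1, Psmd3, Psmd6, Psmd7, Psma4, Psmc2 and Psmc5, where named outside that rule, came from motif matches or the order of levels. Alternatives were other scalings, filters, tests (limma 3.58.1 on log2 of FPKM plus a pseudocount, DESeq2 1.42.0), a replicate block and leaving out each library.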

Additional observations from a re-analysis of the deposited data

How the results depend on the processing

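Scaling between libraries moved the counts in both comparisons with GPI, and the test and the pseudocount moved others. On library sizes alone, 1 member was called higher and 41 lower in GPI against Sham (24 and 13 with TMM), and 40 higher and 1 lower in GMTT against GPI (8 and 29 with TMM). With library sizes counted without mitochondrial, muscle and erythroid genes, an alternative chosen after seeing the data, these were 5 and 33, and 31 and 9. On library sizes alone these log2 fold changes reversed in GPI against Sham: Psma3 -0.60, Psma6 -0.78, Psmc6 -0.41, Psmd2 -0.62, Psme1 -0.89, Psme2 -0.63, Psmg4 -0.29, Psme1-ps1 -0.56, Pomp -0.56 and Ngly1 -0.50. In GMTT against GPI these reversed: Psma3 0.46, Psma6 0.69, Psmb1 0.82, Psmb4 0.97, Psmc3 0.90, Psmc4 0.95, Psmc6 0.23, Psmd2 0.58, Psme2 0.87, Psme4 0.79, Psmg4 0.31, Pomp 0.55 and Ngly1 0.45. Without mitochondrial, muscle and erythroid genes these still reversed: Psma3 -0.13, Psma6 -0.31, Psmd2 -0.16, Psme1 -0.42 and Psme2 -0.17 in GPI against Sham, and Psma6 0.23, Psmb1 0.36, Psmb4 0.51, Psmc3 0.44, Psmc4 0.50, Psmd2 0.12, Psme2 0.41 and Psme4 0.33 in GMTT against GPI. The construction of these alternatives, which drop or change the factor of each library, moves all genes of a library together.

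Psmb8, Psmb9, Psmf1 and Psmd5 kept direction and call in all 3 comparisons under each scaling. With limma on log2(FPKM + 1) and no low-count filter, 13 members were lower in GMTT against Sham in place of 24, the cause was not tested, and DESeq2 gave 17 and limma after the filter 16. With 1 added to each FPKM, the Psmb8 to Psmb5 log2 ratio differed by -4.06 (GPI against Sham) and 4.46 (GMTT against GPI), and the Psmb9 to Psmb6 ratio by -3.02 and 3.50, since a pseudocount shrinks low values.

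Leaving out 1 library at a time, the counts of members called higher and lower were 23 to 24 and 11 to 13 in GPI against Sham, 8 to 8 and 26 to 29 in GMTT against GPI, and 4 to 5 and 18 to 23 in GMTT against Sham. The Psmb8 to Psmb5 differences ranged from -4.46 to -4.30, 4.71 to 4.87 and 0.37 to 0.46 in these comparisons, and the Psmb9 to Psmb6 differences from -3.42 to -3.28, 3.79 to 3.88 and 0.43 to 0.57. Same-numbered libraries deviated together with correlations of -0.29 to 0.10. The labels state no pairing, so the libraries were taken as unpaired, though such correlations cannot exclude one. The replicate block gave 24 and 13, 8 and 28, and 5 and 22 higher and lower calls in the 3 comparisons and left the ratio differences as they were, for example -4.37 for Psmb8 to Psmb5 and -3.35 for Psmb9 to Psmb6 in GPI against Sham. The Psmb10 to Psmb7 ratio of the plan was not run, since Psmb10 was not analysed here. Depth limited Psmb8 and Psmb9 most in GPI, with 188 and 205 counts over 3 libraries.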
